A study of Mus musculus with 64 samples.

Results

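The genes described here make, break down and coat triglyceride, the storage form of fatty acids: Dgat1, Dgat2 and Gpam of its synthesis, the lipase genes Ces1d, Lipe, Pnpla2 and Mgll, and the droplet protein genes Plin4 and Cidea. All probes whose platform annotation carries one of these 9 symbols were taken, which gave 9 of the 16593 named genes on the array and 12 of its 25697 probes, with 3 probes for Mgll, 2 for Lipe and 1 for each other gene. Transcript levels were measured with Illumina MouseRef-8 v2 bead arrays, whose probes are short oligonucleotides on beads, in whole hearts of male mice on a C57Bl/6J background. KO hearts came from mice with a deletion of BMAL1 in cardiomyocytes (called CBK in the labels) and WT hearts from their littermates. Hearts of both genotypes were taken at 8 zeitgeber times (ZT, hours after lights on, in cycles of 12 h of light and 12 h of darkness) 3 h apart, with 4 arrays per genotype and time, 32 per genotype and 64 in all. Both genotypes had standard chow and water freely available. The mice's age, the promoter that drives the deletion and whether each array is a separate mouse are not given in the sources used here, so the spread behind each p-value is that among these samples and may in part be technical.

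Triglyceride is built in steps from glycerol 3-phosphate and fatty acyl-CoA, and kept in cytosolic lipid droplets whose surface carries proteins of the perilipin and CIDE families. Lipases take its fatty acids off one after another, and in the heart these feed mitochondrial oxidation and ligands of PPAR receptors. BMAL1, encoded by Arntl, pairs with CLOCK to drive the circadian clock by binding E-boxes (CACGTG), while its targets act in turn on D-boxes and on ROR elements.

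Between 9237 and 10605 probes per array were detected (detection p under 0.01), and raw median intensities ranged from 119 to 196. A probe was tested if it was detected on at least 4 arrays, which held for 12101 probes in all and for 11 of the 12 described here. The second Lipe probe (ILMN_3111326) was detected on 0 of 32 KO arrays and 0 of 32 WT arrays and gives no level. In 4 of 64 arrays the spread around the group mean exceeded 1.5 times that of the median array: KO ZT9 replicates 170 (2.06 times) and 206 (1.77 times), KO ZT6 replicate 2 (1.56 times) and WT ZT6 replicate 1 (1.75 times). The targeted gene Arntl had an amplitude of 0.59 ± 0.08 in KO hearts and 1.60 ± 0.08 in WT hearts (log2, SE, limma adjusted p = 2.2e-09 for the rhythm difference), with a 24 h mean that did not pass (KO minus WT 0.07 ± 0.08). Where its probe lies relative to the deleted part is not given, so it does not check the deletion.

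Promoter sequences are shown for Mgll, Lipe and Plin4, since the first pair hold an E-box and Plin4 was the member whose rhythm passed in both genotypes. They are RefSeq sequences on GRCm38.p6 and cover 250 bases before to 50 after a transcript's start, written along the gene's own strand. Capitals mark the E-box.
Mgll, chr6:88724162-88724461, plus strand: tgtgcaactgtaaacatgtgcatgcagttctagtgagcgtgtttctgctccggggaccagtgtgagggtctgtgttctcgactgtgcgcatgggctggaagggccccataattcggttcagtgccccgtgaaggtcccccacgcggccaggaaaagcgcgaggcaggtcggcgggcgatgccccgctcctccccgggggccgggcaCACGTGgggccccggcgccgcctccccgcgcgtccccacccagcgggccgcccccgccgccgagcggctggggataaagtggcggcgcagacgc
Lipe, chr7:25395938-25396237, minus strand: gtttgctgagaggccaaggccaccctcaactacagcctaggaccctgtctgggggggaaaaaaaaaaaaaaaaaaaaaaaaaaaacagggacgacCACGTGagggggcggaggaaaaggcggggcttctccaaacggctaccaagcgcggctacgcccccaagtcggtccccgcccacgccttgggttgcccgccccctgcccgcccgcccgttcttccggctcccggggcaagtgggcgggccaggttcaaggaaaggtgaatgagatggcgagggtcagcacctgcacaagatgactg
Plin4, chr17:56109733-56110032, minus strand: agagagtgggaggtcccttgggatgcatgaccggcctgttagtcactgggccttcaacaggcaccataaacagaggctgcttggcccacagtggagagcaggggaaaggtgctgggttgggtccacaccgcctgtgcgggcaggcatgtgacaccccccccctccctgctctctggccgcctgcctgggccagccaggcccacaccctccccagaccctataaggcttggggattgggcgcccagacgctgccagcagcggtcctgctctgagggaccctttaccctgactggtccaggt
RefSeq windows were matched for 5 of the 9 genes (Gpam, Lipe, Pnpla2, Mgll and Plin4), 8 windows in all, as Gpam, Lipe and Mgll have 2 each. The letters CACGTG, searched on both strands, were in 2 of the 8 windows (25%), beside 7.15% of all 32851 promoter windows of the same length. Counted from the transcript start, the E-box begins at position -44 in Mgll and at -155 in Lipe. The D-box core TTATG, present in 28.0% of all windows, was found on the minus strand of the same Mgll window at -144 and of the Plin4 window at -186. The ROR core AGGTCA, present in 16.3% of all windows, was found in a Gpam window (chr19:55099428-55099727, minus strand) at -196. None of these matches overlaps another, and a match in these letters is a description and no binding site.

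The first comparison asked which members differed between KO and WT hearts in their mean over the day. In KO hearts the carboxylesterase gene Ces1d was 23.4-fold lower and Dgat2, which adds the final acyl chain of triglyceride, 2.87-fold lower. Plin4, which encodes a droplet coat protein, and Gpam, the mitochondrial enzyme of the first step, were lower by smaller amounts. Cidea, whose protein promotes the fusion of droplets, was 1.76-fold higher, and Dgat1, which acts at the same step as Dgat2, 1.29-fold higher. Of the 11 tested member probes 9 passed in the 24 h mean, 2 higher and 7 lower, where 34.4% of all 12101 tested probes passed, 17.0% higher and 17.4% lower. The members' median difference was -0.21 and their median absolute difference 0.37 on the log2 scale, against -0.01 and 0.11 over all tested probes. Because the members were chosen with earlier results of these data known, shares beside all probes, here and below, are a description only. The test was limma's, on log2 normalised intensities with a mean and a 24 h cosine per genotype, with Benjamini-Hochberg adjustment over all tested probes and a threshold of 0.05. In whole hearts, fewer cells of a type and less RNA per cell cannot be told apart. With median scaling in place of quantile normalization the split over all probes moved from 49.5% to 78.3% higher among the calls, and 3 members passed as higher and 4 as lower.

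**Figure D1:**
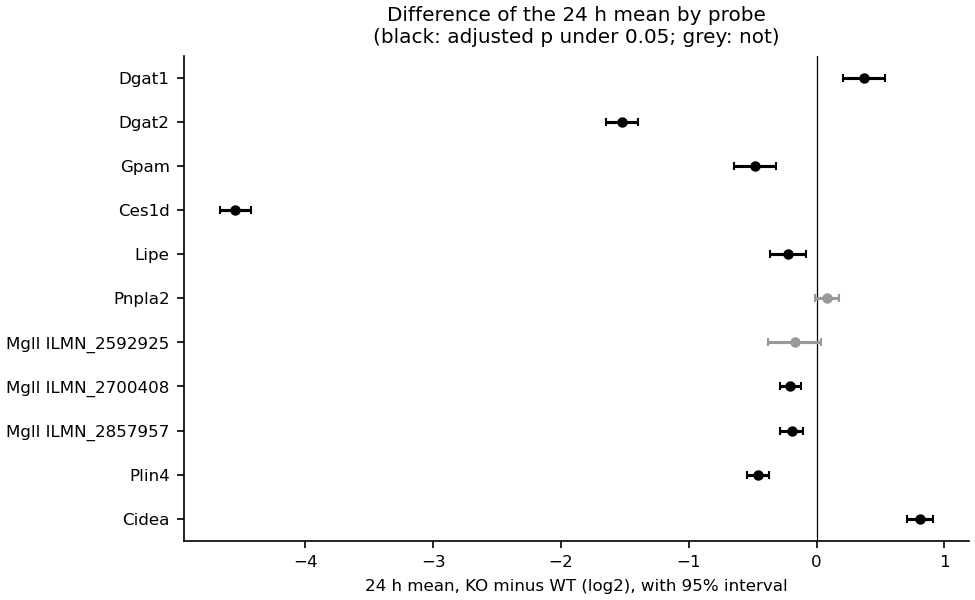
Difference of the 24 h mean, KO minus WT, in log2 units (horizontal axis) for the 11 tested member probes, with 95% intervals from 32 arrays per genotype. Black points passed at an adjusted p under 0.05 and grey points did not; Ces1d (-4.55) and Dgat2 (-1.52) lie farthest below 0 and Cidea (0.81) farthest above.

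Among the genes of synthesis, Gpam catalyses the first acylation of glycerol 3-phosphate. Its log2 level was 5.82 at its lowest, 6.61 at the median and 7.52 at its highest over KO arrays, against 6.46, 7.06 and 7.80 over WT arrays. The ranges overlapped for much of their width, with the KO arrays shifted down. The 24 h mean was 6.60 in KO hearts and 7.08 in WT hearts, a difference of -0.48 ± 0.08 (SE, 32 arrays per genotype, limma with Benjamini-Hochberg, adjusted p = 2.1e-06), and the KO group was lower at 7 of 8 times. The shift was -0.25 at ZT 0, 6, 12 and 18 and -0.71 at ZT 3, 9, 15 and 21, and at ZT 0, 6, 12 and 18 alone it did not pass (adjusted p = 0.126). Without background correction the difference was -0.23 and passed (adjusted p = 2.5e-06).

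Dgat1 and Dgat2 encode unrelated enzymes that both add the last acyl chain to diacylglycerol. The log2 level of Dgat2 was 10.18 at its lowest, 10.61 at the median and 11.49 at its highest over KO arrays, against 11.65, 12.21 and 12.82 over WT arrays. Every KO array was therefore below every WT array, as was the case, in one direction or the other, for 0.438% of all tested probes. The difference of the 24 h mean was -1.52 ± 0.06 (SE, 32 arrays per genotype, limma with Benjamini-Hochberg, adjusted p = 5.65e-31), the 14th lowest among 12101 probes. Falls past 2-fold were called for 0.306% of all probes, and among the members Ces1d and Dgat2 were past it. Dgat1 ranged from 5.93 through a median of 6.64 to 7.66 over KO arrays, against 5.57, 6.35 and 7.05 over WT arrays. Its arrays overlapped widely, and its 24 h mean was higher by 0.37 ± 0.08 (limma with Benjamini-Hochberg, adjusted p = 0.00025), with the KO group higher at 7 of 8 times. Without background correction the Dgat1 difference was 0.16 and passed (adjusted p = 0.0003).

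The lipase genes ran from no call to the largest fall among all tested probes. Ces1d encodes a carboxylesterase that hydrolyses stored triglyceride in mouse liver and fat tissue. Its log2 level was 7.45 at its lowest, 7.99 at the median and 8.47 at its highest over KO arrays, against 12.27, 12.51 and 12.83 over WT arrays. The genotypes were far apart on every array, and the probe was detected on 32 of 32 KO arrays and on 32 of 32 WT arrays. The difference of the 24 h mean was -4.55 ± 0.06 (SE, 32 arrays per genotype, 95% interval -4.67 to -4.43, limma with Benjamini-Hochberg, adjusted p = 5.4e-59), the lowest of 12101 tested probes. Ces1d belongs to a family of closely similar genes, so the probe may also read other carboxylesterases and the share of each in this value is uncertain. Of 12 other carboxylesterase genes on the array 2 were tested, Ces1b at 0.03 and Ces2g at 0.07, and neither passed in limma, also at an unadjusted p under 0.05. Both lay near background, with Ces1b detected on 3 KO and 2 WT arrays and Ces2g on 10 KO and 8 WT arrays. Their differences therefore say little about a change in these genes. By their brightest probe, Ces1a, Ces1e, Ces1f, Ces1g, Ces2a, Ces2b, Ces2e, Ces3b and Ces4a were detected on 0 arrays, and Ces1c on 1 KO array and 0 WT arrays. Whether the Ces1d probe reads any of them was not tested.

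Pnpla2, Lipe and Mgll encode the lipases that act in turn on tri-, di- and monoacylglycerol (ATGL, HSL and monoacylglycerol lipase). Pnpla2 was 11.95 at its lowest, 12.22 at the median and 12.85 at its highest over KO arrays, against 11.96, 12.16 and 12.43 over WT arrays. The KO arrays covered the whole WT range, and the difference of 0.08 ± 0.05 did not pass (95% interval -0.01 to 0.18, limma with Benjamini-Hochberg, adjusted p = 0.175), although with median scaling it did (0.18, adjusted p = 0.0197). Lipe (ILMN_2742636), detected on 21 of 32 KO arrays and 27 of 32 WT arrays and so near background, ranged from 5.17 through a median of 5.74 to 6.23 over KO arrays, against 5.36, 5.96 and 6.61 over WT arrays. The arrays overlapped over most of this span and the 24 h mean was lower by a difference of -0.22 ± 0.07 (limma with Benjamini-Hochberg, adjusted p = 0.0109), with the KO group lower at 7 of 8 times. That call ended with median scaling (adjusted p = 0.0565), with cardiomyocyte markers as a covariate (adjusted p = 0.0774), and over the arrays of ZT 0, 6, 12 and 18 (adjusted p = 0.094) or those of ZT 3, 9, 15 and 21 (adjusted p = 0.109) by themselves, and without background correction the difference was -0.07 (adjusted p = 0.0142).

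The Mgll probes did not all pass. ILMN_2700408 ranged from 9.64 through a median of 10.09 to 10.62 over KO arrays, against 10.04, 10.35 and 10.65 over WT arrays, and ILMN_2857957 from 8.70 through 8.89 to 9.61 over KO arrays, against 8.87, 9.08 and 9.42 over WT arrays. On both, KO and WT arrays overlapped and the KO group mean was lower at 8 of 8 times, a sign kept at every time by 19.7% of all probes. Their 24 h means differed by -0.21 ± 0.04 and -0.20 ± 0.04 (SE, limma with Benjamini-Hochberg, adjusted p = 4.2e-05 and adjusted p = 0.00036). ILMN_2592925 had a median of 7.26 and reached 8.72 over KO arrays, against a median of 7.53 and a highest level of 8.64 over WT arrays, and its arrays overlapped. Its difference of -0.17 ± 0.10 did not pass (95% interval -0.38 to 0.04, limma adjusted p = 0.209), but it was 0.00 over ZT 0, 6, 12 and 18 alone and -0.34 over ZT 3, 9, 15 and 21 alone, where it passed (adjusted p = 0.0102). With median scaling the calls of ILMN_2700408 (-0.10, adjusted p = 0.265) and ILMN_2857957 (-0.10, adjusted p = 0.218) ended. Over ZT 0, 6, 12 and 18 alone the difference of ILMN_2700408 was -0.08 (adjusted p = 0.362), against -0.33 over ZT 3, 9, 15 and 21, where instead ILMN_2857957 missed the threshold (-0.17, adjusted p = 0.0759).

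The droplet protein genes moved in opposite directions. Plin4, a perilipin found in fat, heart and skeletal muscle, was 10.74 at its lowest, 11.22 at the median and 11.53 at its highest over KO arrays, against 11.11, 11.65 and 12.04 over WT arrays. The WT arrays of ZT 3 and ZT 6 and most of those of ZT 9 reached into the KO range, as did the lowest of ZT 21 (11.31). The KO group mean was below the WT mean at 8 of 8 times. The 24 h mean was 1.38-fold lower, a log2 difference of -0.46 ± 0.04 (SE, 32 arrays per genotype, limma with Benjamini-Hochberg, adjusted p = 5.9e-14). Cidea, best known from brown fat, was 9.38 at its lowest, 10.03 at the median and 10.40 at its highest over KO arrays, against 8.86, 9.18 and 9.53 over WT arrays. A single KO array, at ZT 12, lay within the WT range, and the 24 h mean was higher by 0.81 ± 0.05 (SE, limma with Benjamini-Hochberg, adjusted p = 8.5e-22), the 84th highest among 12101 probes. Rises past 1.5-fold were called for 1.54% of all probes.

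The differences were also read at each time, from the 4 arrays per genotype, with one limma fit of the 16 group means and adjustment over all probes within each time. These tests use the same arrays as the 24 h mean and are no separate evidence. Ces1d, Dgat2 and Cidea passed at 8 of 8 times, as did 1.27% of all probes, and their KO and WT arrays did not overlap at any of the 8 times, which held for 1.12% of all probes. Plin4 passed at 6 times, Gpam at ZT 9 and ZT 15, and the Mgll probe ILMN_2700408 at ZT 15 and ZT 21. The other 5 tested probes passed at 0 of 8 times by limma's adjusted p, as did 78.9% of all probes. At an unadjusted p under 0.05, Dgat1 had 4 such times, Lipe 3, ILMN_2857957 3, ILMN_2592925 1 and Pnpla2 0. Among these, Dgat1 passed at ZT 6 with median scaling (0.93, adjusted p = 0.00891), with no background correction (0.32, adjusted p = 0.0469) and without KO ZT6 replicate 99 (0.81, adjusted p = 0.0399), and at ZT 9 without KO ZT9 replicate 171 (0.86, adjusted p = 0.00717). ILMN_2592925 passed at ZT 15 over ZT 3, 9, 15 and 21 alone (-0.72, adjusted p = 0.024).

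**Figure D2:**
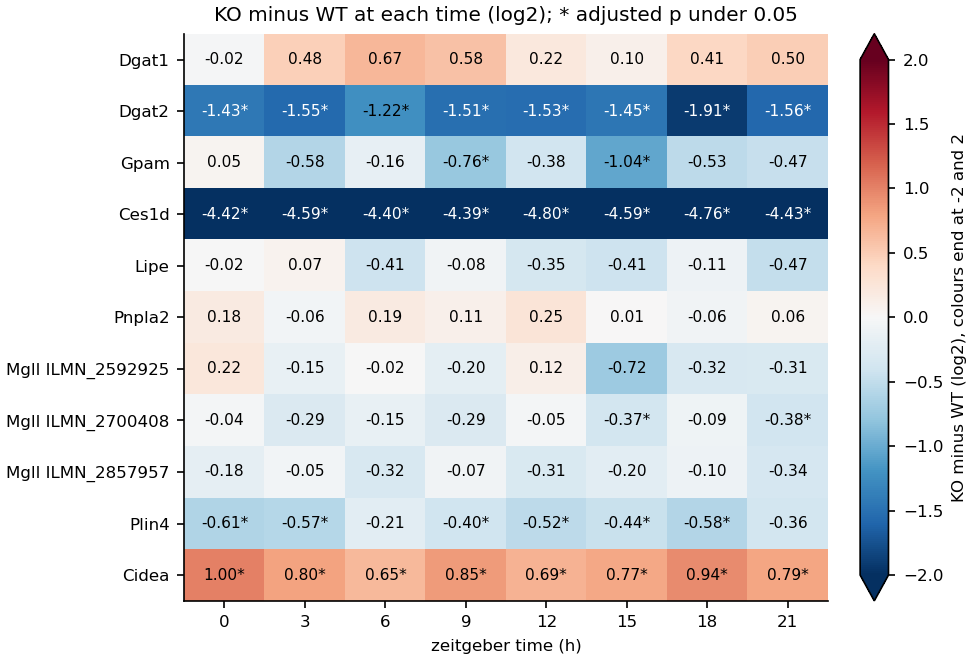
KO minus WT (log2, colour and printed value) for each tested member probe (rows) at each zeitgeber time in hours (columns), from 4 arrays per genotype and time; an asterisk marks an adjusted p under 0.05. The rows of Dgat2, Ces1d and Cidea carry an asterisk at all 8 times, and Plin4 at 6.

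By time, the members called were 4 of 11 at ZT 0, where 10.7% of all probes passed, 4 at ZT 3 (3.74% of all), 3 at ZT 6 (3.74%) and 5 at ZT 9 (8.54%). They were 4 at ZT 12 (6.80% of all probes), 6 at ZT 15 (5.19%), 4 at ZT 18 (5.37%) and 4 at ZT 21 (4.33%). Cidea was among them at each time, with a higher level in KO hearts.

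The Ces1d difference varied little over the day. At ZT 12, where it was largest at -4.80 ± 0.17 (SE), the log2 levels were 7.49, 8.05, 7.65 and 7.59 on KO arrays and 12.36, 12.32, 12.67 and 12.64 on WT arrays. At ZT 9, where it was smallest at -4.39 ± 0.17, they were 8.37, 7.97, 7.80 and 7.93 on KO arrays and 12.41, 12.39, 12.43 and 12.42 on WT arrays. At both times the KO arrays lay far below every WT array.

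The Dgat2 difference was largest at ZT 18 and smallest at ZT 6. At ZT 18 the log2 levels were 10.60, 10.26, 10.32 and 11.43 on KO arrays and 12.39, 12.82, 12.44 and 12.61 on WT arrays, a difference of -1.91 ± 0.17 (SE, n = 4 each, limma adjusted p = 2.9e-12). At ZT 6 they were 10.30, 10.69, 10.48 and 10.54 on KO arrays and 11.81, 11.72, 11.65 and 11.71 on WT arrays, a difference of -1.22 ± 0.17 (limma adjusted p = 1.1e-06). Even the highest KO array at ZT 18 stood below all WT arrays, and it lay apart from the other 3 KO arrays of that time.

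Cidea differed most at ZT 0, where the log2 levels were 10.39, 9.90, 9.93 and 10.28 on KO arrays and 9.13, 9.15, 9.01 and 9.19 on WT arrays (difference 1.00 ± 0.14, SE, limma adjusted p = 9.6e-07). At ZT 12 they were 9.85, 9.38, 10.19 and 10.19 on KO arrays and 9.10, 9.28, 9.32 and 9.14 on WT arrays (0.69 ± 0.14, limma adjusted p = 0.00072). The lowest KO array of ZT 12 was only just above the highest WT array of that time. The smallest difference was 0.65 at ZT 6.

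Plin4 differed most at ZT 0, with log2 levels of 11.32, 11.18, 11.40 and 11.26 on KO arrays and 11.93, 11.82, 12.02 and 11.83 on WT arrays (difference -0.61 ± 0.12, SE, limma adjusted p = 0.00022). At ZT 6 the levels were 10.80, 11.39, 11.35 and 11.16 on KO arrays and 11.24, 11.49, 11.38 and 11.40 on WT arrays, which overlapped, and the difference of -0.21 did not pass (limma adjusted p = 0.432). The groups did not overlap at 5 of 8 times, and 4.79% of all probes were apart at 5 or more times. The difference of -0.36 at ZT 21 lay just short of passing (adjusted p = 0.0585), and it passed in 5 of 9 alternatives (with no background correction at adjusted p = 0.0328) and when any 1 of 6 arrays was left out. The ZT 9 call (-0.40, adjusted p = 0.0187) ended without WT ZT9 replicate 173 (-0.30, adjusted p = 0.134) or replicate 175 (-0.37, adjusted p = 0.0651), and the ZT 15 call without KO ZT15 replicate 181 (-0.40, adjusted p = 0.0532). With median scaling Plin4 did not pass at ZT 3, 9, 12, 15 or 18.

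Gpam was farthest apart at ZT 15, with log2 levels of 6.48, 6.62, 6.31 and 6.46 on KO arrays and 7.36, 7.80, 7.33 and 7.54 on WT arrays. No KO array of that time reached a WT array (11.5% of all pairs of a probe and a time had no overlap), and the difference was -1.04 ± 0.22 (SE, limma adjusted p = 0.00072). At ZT 0 the levels were 7.12, 7.16, 6.63 and 6.70 on KO arrays and 6.84, 6.85, 6.90 and 6.80 on WT arrays, which overlapped (0.05, limma adjusted p = 0.901). The ZT 9 call (-0.76, adjusted p = 0.0161) ended without KO ZT9 replicate 170, which spread widest of all arrays (-0.54, adjusted p = 0.124), without WT ZT9 replicate 169 (-0.68, adjusted p = 0.0673) and with median scaling (-0.71, adjusted p = 0.116).

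The Mgll probe ILMN_2700408 had log2 levels of 10.08, 10.05, 9.90 and 9.91 on KO arrays at ZT 21 and 10.40, 10.36, 10.40 and 10.30 on WT arrays (difference -0.38 ± 0.11, SE, limma adjusted p = 0.0326). These arrays did not overlap, nor did those of ZT 15 (-0.37, limma adjusted p = 0.0342). Both calls were narrow: the first ended when any 1 of 5 arrays was left out and the second when any 1 of 6 was, and both ended with median scaling (-0.32, adjusted p = 0.736 at ZT 21, and -0.27, adjusted p = 0.682 at ZT 15).

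Sample numbers 1 to 154 belong to ZT 0, 6, 12 and 18 and numbers 156 to 209 to ZT 3, 9, 15 and 21, so KO minus WT was set side by side in these time sets of 32 arrays each. It was -1.52 in both for Dgat2, -4.60 and -4.50 for Ces1d, -0.48 and -0.44 for Plin4, 0.82 and 0.80 for Cidea, and 0.32 and 0.42 for Dgat1. The Mgll probe ILMN_2592925 had 0.00 and -0.34, a difference between sets of -0.35 ± 0.21 (SE, limma adjusted p = 0.617). For Gpam (a difference between sets of -0.46 ± 0.15, SE, limma unadjusted p = 0.00396) and the Mgll probe ILMN_2700408 (-0.25 ± 0.08, limma unadjusted p = 0.00251) it was farther below 0 in the later-numbered set. Neither passed after adjustment over all probes (limma adjusted p = 0.544 for each), where 0 of 12101 probes (0%) did. The number range and the times of day cannot be told apart.

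The second comparison was of rhythm, for which each probe was tested for a 24 h cosine in each genotype. Plin4 was rhythmic in KO hearts, narrowly, and Dgat2 and Plin4 in WT hearts, with peaks in the dark phase. In KO hearts 1 of 11 members passed, against 1.17% of all probes, and in WT hearts 2 of 11, against 3.55%. In KO hearts 2 members had an unadjusted p under 0.05, Plin4 and Dgat2.

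**Figure D3:**
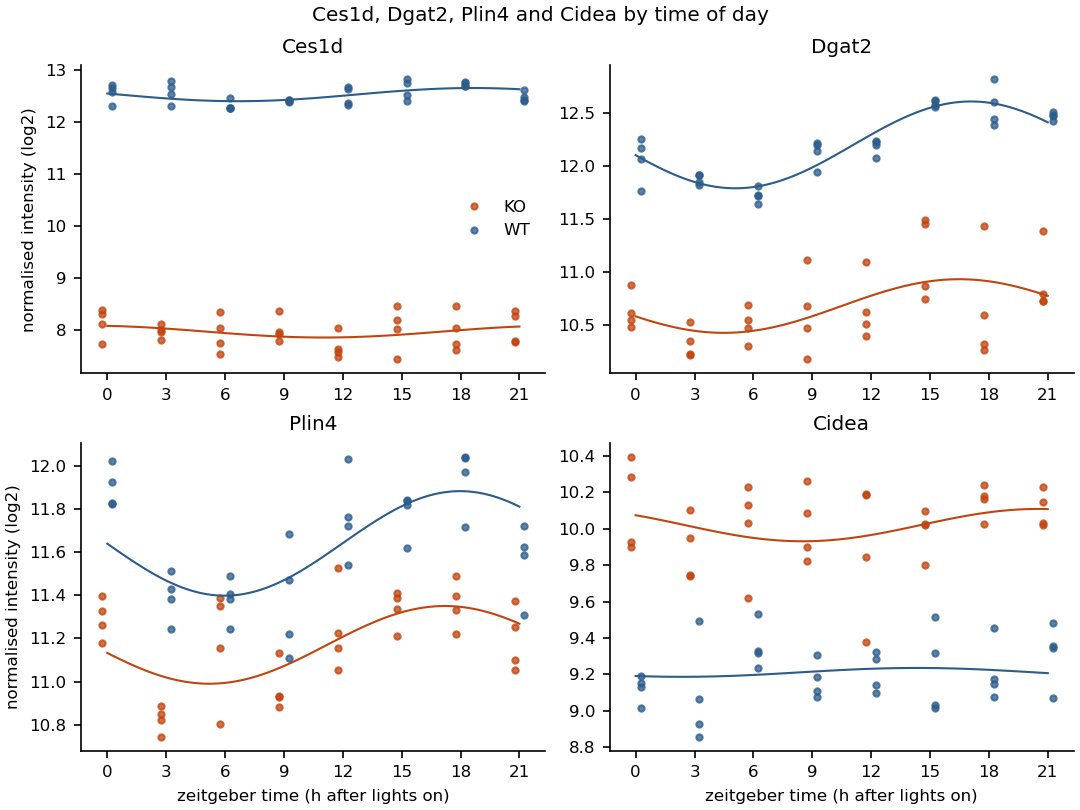
Normalised log2 intensity of Ces1d, Dgat2, Plin4 and Cidea (vertical axes, each with its own range) on every array against zeitgeber time in hours, with the fitted 24 h curves; KO in orange, drawn left of WT in blue. KO and WT points do not overlap at any time for Ces1d, Dgat2 and Cidea, and the curves of Dgat2 and Plin4 are high in the dark phase in both genotypes.

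In KO hearts Dgat2 had an amplitude (the fitted curve from mean to peak, log2) of 0.25 ± 0.06 with a peak at ZT 16.5 ± 0.93 (SE, 32 arrays), just short of passing (limma with Benjamini-Hochberg, adjusted p = 0.0507). In WT hearts the amplitude was 0.41 ± 0.06 and the peak at ZT 17.1 ± 0.58 (adjusted p = 1.2e-05), the 83rd largest WT amplitude of 12101. Leaving out any 1 of 12 arrays put the KO test past the threshold, and the KO amplitude was 0.08 over ZT 0, 6, 12 and 18 alone and 0.43 over ZT 3, 9, 15 and 21 alone (adjusted p = 0.0115). The group means at ZT 15 were 11.14 in KO hearts and 12.59 in WT hearts, and at ZT 6 they were 10.50 in KO hearts and 11.72 in WT hearts. Both genotypes were thus higher at ZT 15 than at ZT 6. In KO hearts the mean at ZT 18 (10.65) was no higher than that at ZT 12 (10.66), and at ZT 21 it was 10.91. The amplitude difference, KO minus WT, was -0.16 ± 0.09 (95% interval -0.33 to 0.02), and the rhythm difference did not pass (limma adjusted p = 0.9997).

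Plin4 had an amplitude of 0.18 ± 0.04 and a peak at ZT 17.2 in KO hearts (SE, 32 arrays, limma with Benjamini-Hochberg, adjusted p = 0.0464) and an amplitude of 0.24 ± 0.04 and a peak at ZT 18.0 in WT hearts (adjusted p = 0.0004). The WT call ended over ZT 3, 9, 15 and 21 alone (0.22, adjusted p = 0.15). Its lowest group mean in KO hearts was 10.82 at ZT 3, where WT hearts had 11.39. At ZT 18 the means were 11.36 in KO hearts and 11.94 in WT hearts, the highest of each genotype. The amplitude difference was -0.06 ± 0.06 (95% interval -0.19 to 0.06). The KO call rests on a thin margin, since it ended when any 1 of 28 arrays was left out. It also ended without the filter on dim probes (adjusted p = 0.0673), under median scaling (0.47 as adjusted p), without the time set term (adjusted p = 0.132) and with white adipocyte markers as a covariate (adjusted p = 0.065), and the amplitude was 0.10 over ZT 0, 6, 12 and 18 and 0.28 over the other times alone.

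The other 9 tested probes had no rhythm that passed in either genotype. Ces1d had amplitudes of 0.11 ± 0.06 in KO hearts and 0.13 ± 0.06 in WT hearts, and Cidea of 0.09 ± 0.05 in KO hearts and 0.02 ± 0.05 in WT hearts (SE, limma adjusted p between 0.5 and 1 in both genotypes). Of the 11 members 0 had a rhythm that differed between KO and WT by limma's adjusted p and 0 at an unadjusted p under 0.05, and 0.240% of all probes passed.

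**Figure D4:**
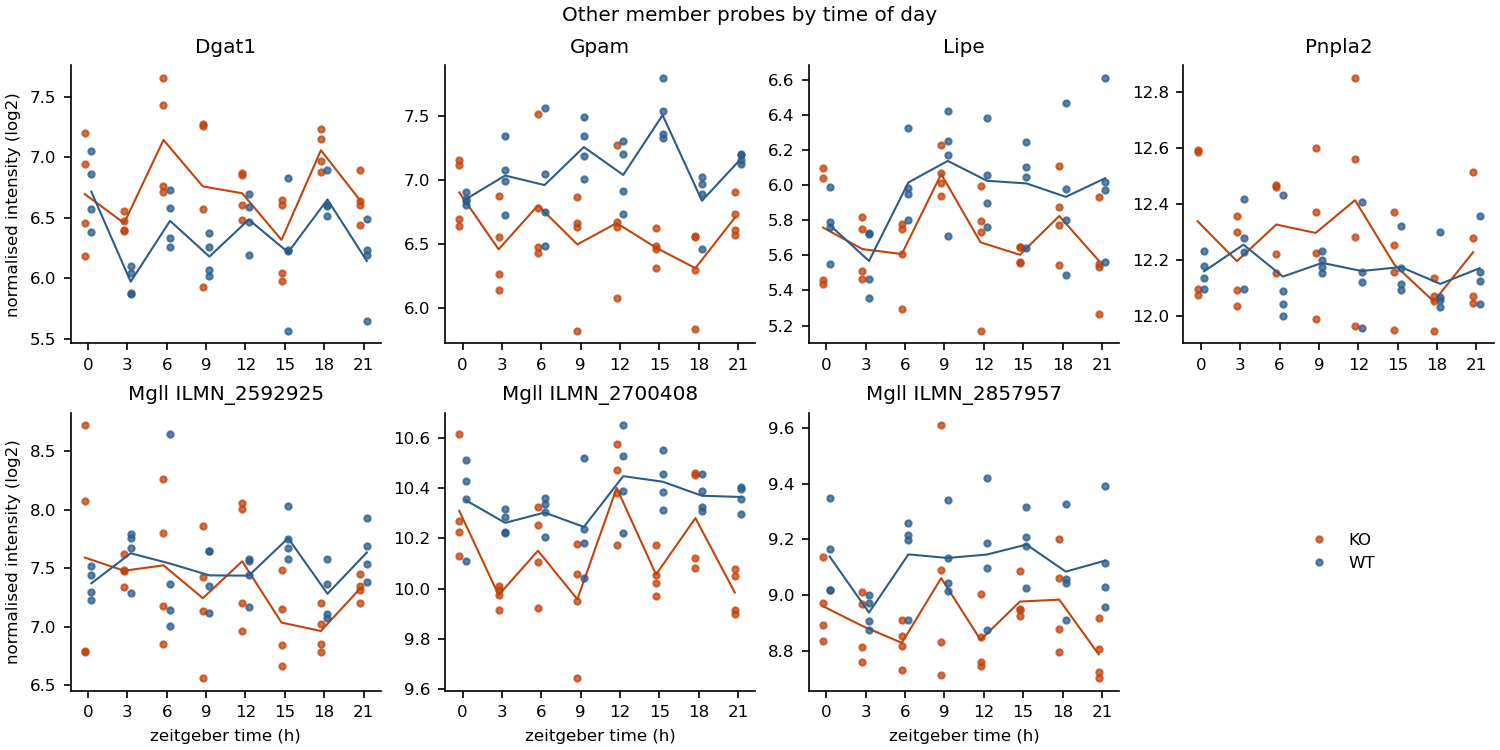
Normalised log2 intensity of the other 7 tested member probes (vertical axes, each with its own range) on every array against zeitgeber time in hours, with lines through the group means; KO in orange, drawn left of WT in blue. KO and WT arrays overlap at most times for each probe, and the Gpam groups are farthest apart at ZT 15.

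The other genes of the pathway lay nearer to 0 in the 24 h mean than Ces1d, Dgat2, Cidea or Gpam, with Gpat3 and Lpin1 close to Gpam in size. Of 10 tested glycerolipid synthesis genes 2 were higher and 2 lower (17.0% and 17.4% of all probes), with a median of 0.07. Gpat3, another enzyme of the first step, was 6.01 in KO hearts and 6.48 in WT hearts (difference -0.47 ± 0.06, SE, limma with Benjamini-Hochberg, adjusted p = 1.4e-08). Lpin1, a phosphatidate phosphatase and coregulator, was 8.96 in KO hearts and 8.51 in WT hearts (0.45 ± 0.13, adjusted p = 0.0056), and Agpat3, of the second step, was 8.77 in KO hearts and 8.53 in WT hearts (0.24 ± 0.07, adjusted p = 0.0065). Agpat5, which falls outside the rule for naming genes and was chosen after its values were seen, was the other lower gene (-0.18). Gpam, Gpat3 and Dgat2 were lower and Dgat1, Lpin1 and Agpat3 higher, and these 6 kept their direction with median scaling. The list's calls in each direction were near the shares over all probes. The Lpin1 call ended over ZT 3, 9, 15 and 21 alone (0.27, adjusted p = 0.229) and with cardiomyocyte markers as a covariate (adjusted p = 0.0867), the Agpat3 call over each time set alone (adjusted p = 0.0939 for ZT 0, 6, 12 and 18, adjusted p = 0.0772 for the other), and without background correction the Gpat3 difference was -0.17.

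Of 8 tested lipases and lipase cofactors 0 were higher and 3 lower by limma's adjusted p, beside 17.0% and 17.4% of all probes. The counts were also 0 and 3 at an unadjusted p under 0.05, and the median was -0.06. G0s2, which encodes an inhibitor of the Pnpla2 product ATGL, was 9.51 in KO hearts and 9.88 in WT hearts (-0.36 ± 0.09, limma with Benjamini-Hochberg, adjusted p = 0.00083). Pnpla8, a phospholipase of mitochondria and peroxisomes, was lower (-0.18 ± 0.05, adjusted p = 0.0014), as was Lpl, which releases fatty acids from lipoproteins at the vessel wall (-0.07 ± 0.03, adjusted p = 0.0325). With median scaling neither Pnpla8 (-0.08, adjusted p = 0.321) nor Lpl (-0.01, adjusted p = 0.933) passed, nor did they over ZT 3, 9, 15 and 21 alone (adjusted p = 0.186 and adjusted p = 0.349) or with cardiomyocyte markers as a covariate (adjusted p = 0.24 and adjusted p = 0.134).

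Of 13 tested droplet protein genes 1 was higher and 3 lower (17.0% and 17.4% of all probes), with a median of -0.09. Plin3, another perilipin, was 9.41 in KO hearts and 9.64 in WT hearts (-0.24 ± 0.05, limma with Benjamini-Hochberg, adjusted p = 0.00021) and was the list's single gene with a rhythm that passed in WT hearts (adjusted p = 0.0183), as Plin4 had. Ldah, a droplet-associated hydrolase, was higher (0.19 ± 0.04, adjusted p = 7.2e-05), and Hsd17b11 lower (-0.25 ± 0.07, adjusted p = 0.0025). Fitm2, which falls outside the rule for naming genes and was chosen after its values were seen, was the other lower gene (-0.12). Plin3 (-0.14, adjusted p = 0.0931) and Hsd17b11 (-0.16, adjusted p = 0.131) did not pass with median scaling. Over ZT 0, 6, 12 and 18 alone Plin3 (-0.12, adjusted p = 0.273), Hsd17b11 (-0.21, adjusted p = 0.188) and Ldah (0.15, adjusted p = 0.0695) did not pass either.

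**Figure D5:**
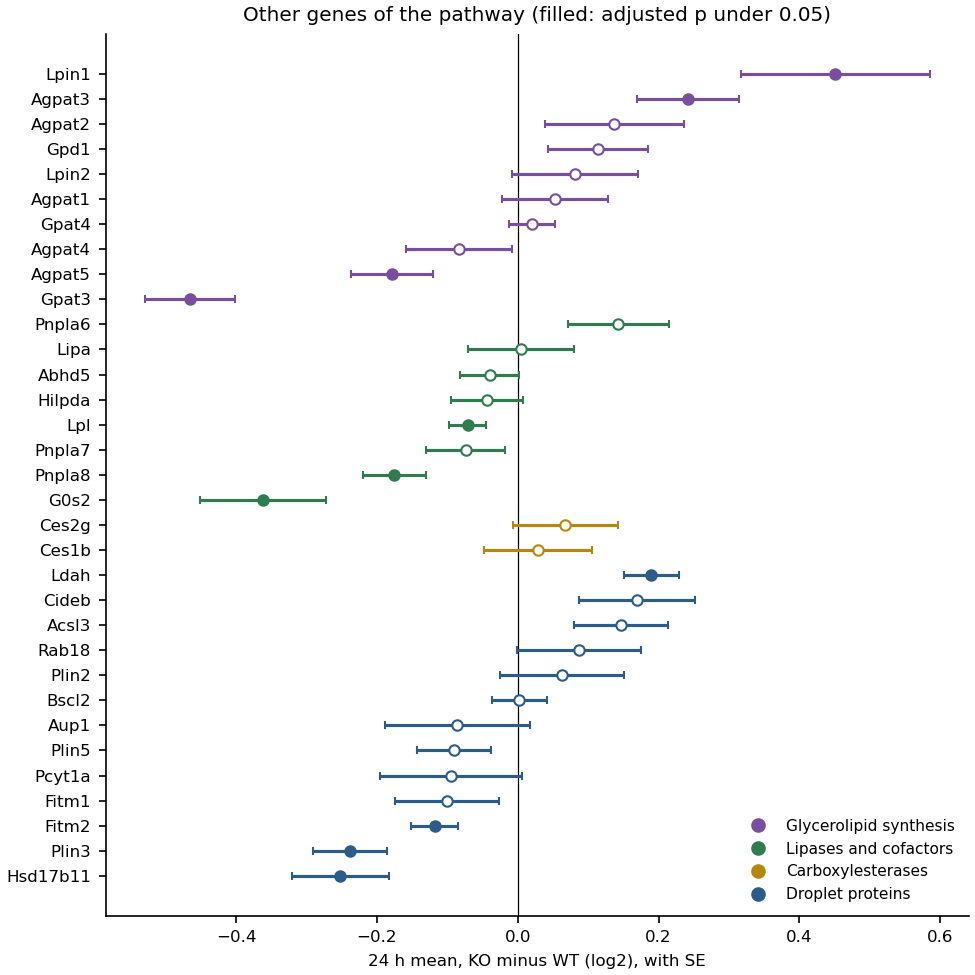
Difference of the 24 h mean, KO minus WT, in log2 units (horizontal axis) with its SE for the tested genes of the 4 pathway lists, 32 arrays per genotype; filled points passed at an adjusted p under 0.05. All lie between -0.47 (Gpat3) and 0.45 (Lpin1), nearer to 0 than Dgat2 or Ces1d.

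Several members are also known from fat tissue, and Ces1d from liver, so markers of those cells were read beside them. White adipocyte markers held 0 higher and 0 lower of 3 tested by limma's adjusted p (0 and 2 at an unadjusted p under 0.05), with Pparg at -0.12, Thrsp at -0.25 (0.14 over ZT 0, 6, 12 and 18 alone, limma adjusted p = 0.428, and -0.64 over ZT 3, 9, 15 and 21 alone, adjusted p = 0.0024) and Adipoq, detected on 6 KO arrays and 9 WT arrays, at -0.09. Retn, Fabp4, Plin1, Cidec and Car3 were detected on 0 arrays, and Lep on 1 KO and 2 WT arrays. Their summed normalised intensity over 9 genes ran from 244 to 509 on KO arrays and from 295 to 534 on WT arrays. Pparg (log2 7.48 in KO hearts and 7.60 in WT hearts) and Thrsp (6.98 and 7.23) were the brightest of the tested markers. As most of the 9 genes were detected on few arrays or none, the sum cannot show the amount of white fat. With this sum as a covariate, the differences were -4.60 for Ces1d, -1.51 for Dgat2, -0.46 for Plin4 and 0.85 for Cidea. A share of fat tissue in these differences was not tested.

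Brown adipocyte markers held 0 higher and 0 lower of 3 tested (also 0 and 0 at an unadjusted p under 0.05, limma), Ebf2 at -0.04 and the genes Cpt1b (0.03) and Cox8b (-0.02), which the heart expresses too. Ucp1, Elovl3, Dio2, Zic1, Lhx8 and Prdm16 were detected on 0 arrays, and the sum over 9 genes ran from 27800 to 38100 on KO arrays and from 28600 to 37800 on WT arrays. Cox8b (log2 14.64 in KO hearts and 14.66 in WT hearts) and Cpt1b (12.86 and 12.83) were far brighter than Ebf2 (6.72 and 6.76). Cox8b and Cpt1b therefore make up nearly all of the sum, so it cannot show the amount of brown fat. Hepatocyte markers held 0 calls of 1 tested, Ttr (0.07), also at an unadjusted p under 0.05. Ttr was detected on 5 KO and 5 WT arrays, Apoa2 on 1 KO and 1 WT array and Apoa1 on 0 KO arrays and 1 WT array. Alb, Serpina1a and Fabp1 were detected on 0 arrays. The sum over the 6 genes ran from 55.7 to 114 on KO arrays and from 50.2 to 189 on WT arrays.

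Cardiomyocyte markers held 0 higher and 4 lower of 7 by limma's adjusted p, beside 17.0% and 17.4% of all probes. At an unadjusted p under 0.05 there were 0 and 5. Among the 4 lower were Ryr2 (-0.29), Pln (-0.24) and Myh6 (-0.09), none of which passed with median scaling. The sum over the 7 markers ran from 122000 to 143000 on KO arrays and from 130000 to 148000 on WT arrays. Actc1 (log2 14.90 in KO hearts and 14.95 in WT hearts), Myh6, Myl2 and Myl3 were the brightest and make up most of it. Whether the sum follows the amount of cardiomyocyte RNA was not tested. With the sum as a covariate the differences were -4.59 for Ces1d, -1.52 for Dgat2, -0.50 for Plin4 and 0.81 for Cidea, and the Mgll probe ILMN_2592925 passed (-0.35, limma adjusted p = 0.0273).

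The likeness of other genes was read from Pearson's r over the 16 group means, as a description, since these points share arrays and the genotype shift sets much of r. For Dgat2 the closest were Mknk2 (r = 0.978), the D-box factor gene Tef (0.978) and Nampt, of NAD salvage (0.975). For Ces1d they were Ift81 (0.991), Ddc (0.991) and Ano10 (0.990), and for Cidea Fam110a (0.974), Tspan17 (0.970) and Myl12a (0.970). For Plin4 they were Ahctf1 (0.932), Kat14 (0.930) and Gstt1 (0.915), which peaked at ZT 17.8 in WT hearts. The closest for Gpam was 2210407C18Rik (0.889), for Dgat1 S100a13 (0.934), for Lipe Znrf1 (0.846), and for the Mgll probes ILMN_2700408 and ILMN_2857957 Tgfbr3 (0.901) and Znrf1 (0.891). Among the members themselves, r was 0.95 between Dgat2 and Ces1d, 0.847 between Dgat2 and Plin4 and -0.974 between Cidea and Ces1d.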

How the data were processed

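Transcript levels in 64 mouse hearts (16 groups of 4 arrays) were analysed. The authors deposited an averaged bead intensity for each probe on each array with a detection p-value, as named per the file headers; the sources used here give no software for them. They also deposited processed intensities, 26.2% of them below 0, used as an alternative only. The number of arrays limits the precision.

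Background was removed with limma 3.58.1 in R 4.3.3 (normexp from the detection p-values, offset 16), followed by quantile normalization and log2. Probes detected (p under 0.01) on 4 or more arrays were tested. Names came from the platform annotation (23978 probes with 1 symbol, 1719 with none and 0 with several), and RefSeq matched 23962. All tested probes were fitted with limma over all arrays by a 24 h cosine curve and its mean for each genotype, with the time set as a further term (ZT 0, 6, 12 and 18 against ZT 3, 9, 15 and 21), and KO minus WT at each time by a mean per group. Benjamini-Hochberg adjustment ran over all tested probes, with a threshold of 0.05. The fit was tested on simulated data. List genes are read on their brightest tested probe. Members, lists and motifs were chosen with earlier results of these data known. The rule for names was all member probes, Arntl, up to 3 genes per list with the smallest adjusted p in the 24 h mean, and the 3 genes closest to each called member. Of the 96 pairs of arrays within groups none were identical. Alternatives covered background, scaling, filters, the probe unit, time sets, the shape of the rhythm, arrays left out and, chosen after seeing the data, the marker sums as covariates and the test between time sets.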

Additional observations from a re-analysis of the deposited data

Results flagged for a closer look

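Single arrays that stood apart from the other 3 of their group were looked for in 176 groups of 4 (11 probes in 16 groups), as a gap to the nearest array beyond Dixon's 95% critical share of the group's range. There were 6 such groups (3.41%), and chance gives about 1 in 20. KO ZT21 replicate 160 had the higher Dgat2 level, 11.38 against 10.73 to 10.79 in the other arrays, a gap of 0.908 of the range. WT ZT6 replicate 151 had the higher Ces1d level, 12.47 against 12.27 to 12.28 (0.984). WT ZT18 replicate 84 was higher in Pnpla2, 12.30 against 12.03 to 12.07 (0.874). The Mgll probe ILMN_2857957 was higher in KO ZT15 replicate 177, 9.09 against 8.93 to 8.95 (0.849), and lower in WT ZT6 replicate 152, 8.91 against 9.20 to 9.26 (0.830). Plin4 was lower in WT ZT15 replicate 180, 11.62 against 11.82 to 11.84 (0.892).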

How the results depend on the processing

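The calls of Ces1d, Dgat2, Plin4, Cidea and Dgat1 in the 24 h mean held in all 13 alternatives run for it and without each of the 64 arrays. Over the members the 24 h mean gave 129 of 141 tests on the same side of the threshold, 9 that lost it and 3 that gained it, and the single times 758 of 776, with 10 and 8; no direction of a call reversed. Members rhythmic in KO numbered 1, and 2 with no background correction, with a normexp offset of 50, among probes detected on at least 32 arrays, with 1 probe per gene, at ZT 3, 9, 15 and 21 alone or without the 3 widest arrays together, and 0 with median scaling, with no filter, with no time set term, at ZT 0, 6, 12 and 18 alone or with white adipocyte markers as a covariate. With a mean per time 3 passed, but that test asks for any difference among the 8 times and has no time set term. It therefore also counts an offset between the time sets. The Mgll probe ILMN_2700408, which passed only there, had a KO mean of 10.29 at ZT 0, 6, 12 and 18 and of 9.99 at ZT 3, 9, 15 and 21. Members rhythmic in WT numbered 2, and 1 at ZT 3, 9, 15 and 21 alone. Over all probes, the 4159 calls of the 24 h mean became 2377 at ZT 3, 9, 15 and 21 alone. The 142 rhythmic in KO became 51 with median scaling and 21 at ZT 0, 6, 12 and 18 alone, and 1315 passed the wider test with a mean per time. The 430 in WT became 240 and 113 in these settings and 131 at ZT 3, 9, 15 and 21 alone, and 925 passed the wider test. The 29 rhythm differences became 14 with median scaling, 10 at ZT 0, 6, 12 and 18 alone and 12 at ZT 3, 9, 15 and 21 alone. A time set alone holds fewer arrays, and otherwise the cause was not tested. Without 1 array each, the 24 h mean gave 4002 to 4451 calls (9 to 9 members), rhythm in KO 115 to 208 (0 to 2), rhythm in WT 353 to 497 (2 to 2), the rhythm difference 24 to 34 (0 to 0), and the single times 15 to 16 member calls at ZT 0, 6, 12 and 18 and 17 to 20 at ZT 3, 9, 15 and 21. No paired analysis was possible because every array carries its own sample number and the groups share none. Levels near background, as of Lipe, limit what its probe can show.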

Other observations

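Within groups, KO arrays spread more than WT arrays for several members. The pooled SD of Dgat2 within groups was 0.329 in KO hearts and 0.119 in WT hearts on the log2 scale, a ratio of 2.77 that was higher than in 99.9% of tested probes. Ces1d had 0.312 in KO hearts and 0.145 in WT hearts (a ratio of 2.15, higher than in 99.4%), and Pnpla2 0.232 in KO hearts and 0.132 in WT hearts (1.76, higher than in 95.9%). Plin4 had a ratio of 0.934. Over all tested probes the median ratio was 1.13, and 69.1% of probes had a ratio above 1. The 24 h means of Dgat2 (10.68 in KO hearts and 12.20 in WT hearts) and Ces1d (7.98 and 12.53) also differed in level. Those of Pnpla2 (12.25 and 12.17) were close. The spread was not tested, nor was its relation to the level.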
